A study of Mus musculus with 47 samples.

Results

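Luminal mature cells of the mouse mammary gland were compared between animals that received telapristone acetate on top of ovarian hormones and animals that received the hormones alone. The comparison was set by the labels and comprised 7 of the 47 libraries of the study, 4 with estradiol, progesterone and telapristone (EP+TPA; mice 312, 328, 332 and 336) and 3 with estradiol and progesterone (EP; mice 306, 311 and 327). Each of the 7 libraries came from a different FVB mouse that had been ovariectomized and treated for 14 days. RNA was sequenced from 3 sorted epithelial fractions, luminal mature (LM), luminal progenitor and mammary stem cells, by full-length amplification from 1 to 2 ng of total RNA and paired reads. LM libraries of 4 mice given the hormones with mifepristone (EP+RU486) and of 4 sham-treated mice entered the same fit. Neither doses nor ages are given in the labels, no mouse received estradiol alone or telapristone without hormones, and no sort gates are described. With 1 library per mouse, p-values rest on the spread between single mice within groups. That spread was pooled over the 4 LM groups, sham and EP+RU486 included.

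Luminal mature cells are the hormone-sensing cells of the mammary epithelium. They carry the estrogen receptor, the progesterone receptor and the prolactin receptor, and they pass the hormone signal on to neighbouring cells through secreted factors such as RANK ligand, WNT4 and amphiregulin. The progesterone receptor is a transcription factor that binds the same DNA element as the glucocorticoid receptor, and its gene is itself an estrogen receptor target. Telapristone acetate and mifepristone are steroids that occupy the progesterone receptor and block its activation. Luminal progenitor cells lack most of these receptors and are the precursors of the milk-producing alveoli.

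The deposited values were taken to be on the scale of FPKM (fragments normalised to transcript length and library size). The mean of the LM libraries lay close to that of the other fractions gene by gene, as it would after an adjustment by gene, which the sources used here do not describe. Over 11067 genes the median absolute log2 ratio of those means was 0.0598, and the basal keratin gene Krt14 averaged 297 in LM and 378 in the other fractions. The LM label could therefore be checked only between LM libraries, not against the other fractions. For 2847 genes the lowest LM value was 0 in at least 2 libraries and for 6369 it was a shared value above 0, so a gene listed at 0 lay at the low end of its scale and was not shown to be silent. The total of the LM values was 281351 to 349128 per library, and read depth is unknown because the values carry no counts. Values were rescaled between LM libraries by factors of 0.862 to 1.24. The factors moved in part with the groups, at 0.917 to 1.03 in EP+TPA mice 312, 328 and 336, 1.12 in mouse 332, and 1.16, 0.962 and 1.24 in EP mice 306, 311 and 327.

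The EP+TPA libraries did not lie together, and 3 of them went against the markers of their label. Of 26 luminal mature markers, 10 were listed at 0 in all of mice 312, 328 and 336, namely the receptor genes Pgr, Prlr and Fgfr2, the transcription factor and cofactor genes Foxa1, Cited1 and Myb, and the secreted-factor genes Areg, Tnfsf11, Wnt4 and Cxcl15. In the EP libraries none of the 26 was listed at 0 in all 3, and in mouse 332 the 3 at 0 were Cited1, Fxyd2 and Tspan8. The 4 EP+RU486 libraries shared 9 markers at 0. Of 24 luminal progenitor markers, Ltf, Csn3 and Lalba were listed at 0 in mouse 332 and in all 3 EP libraries. Their values in the other 3 EP+TPA libraries ran from 156 (Lalba) to 2632 (Csn3). The progenitor markers Rspo1 and Csn2 went the other way and were listed at 0 in all of mice 312, 328 and 336. Kit and Elf5 overlapped between EP+TPA and EP. In log2 values over 11891 genes, mouse 332 correlated at 0.961 with EP mice 306 and 327 and at 0.894 with EP mouse 311, but at 0.856 to 0.874 with the other EP+TPA mice, which correlated among themselves at 0.943 to 0.965. These coefficients describe genes measured in the same libraries and are not tests. Counts, list calls and named genes are therefore given with all 4 EP+TPA libraries and also without mouse 332. Leaving out mouse 332 is a choice made on the values that are tested. Larger counts and smaller p-values without it follow in part from that choice and are not firmer results. In sorted bulk RNA, fewer cells of a type and less RNA per cell cannot be told apart.

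**Figure D1:**
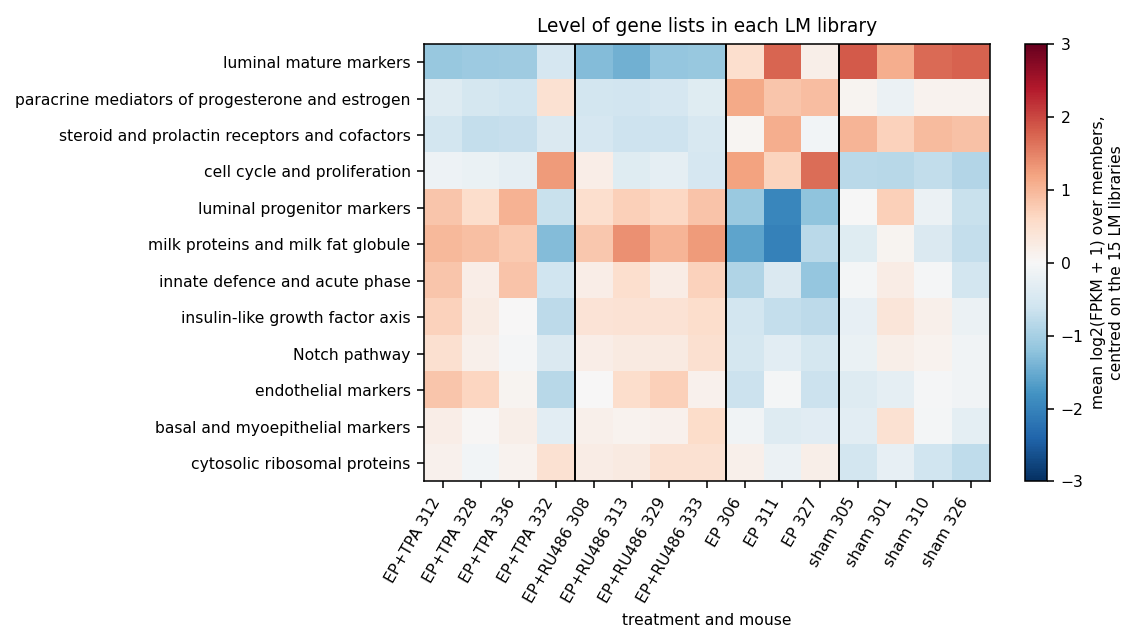
Mean log2(FPKM + 1) of the members of 12 gene lists in each of the 15 LM libraries (columns, by treatment and mouse), centred on the LM libraries, with red above and blue below their mean. For luminal mature markers EP+TPA mouse 332 stood at -0.50, the other EP+TPA mice at -1.14 to -1.07 and EP mice at 0.18 to 1.75. For cell cycle genes mouse 332 stood at 1.28, the other EP+TPA mice at -0.27 to -0.15 and EP mice at 0.66 to 1.68.

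Genes were called changed at an adjusted p under 0.05 (Benjamini-Hochberg, over every gene tested) from a limma fit of log2(FPKM + 1), a scale that understates the change of low genes. With all 4 libraries, 541 of 11893 genes tested changed between EP+TPA and EP (4.55%), 154 higher (1.29%) and 387 lower (3.25%). Without mouse 332, 2223 of 11795 genes changed (18.8%), 1143 higher (9.69%) and 1080 lower (9.16%). Of the 541 genes, 539 were also called without mouse 332, all 539 in the same direction. Without any test, all 4 EP+TPA values lay below all 3 EP values for 1058 genes (8.9%) and above them for 602 (5.06%). On the values as deposited, where the median difference over all genes was -0.13 with all 4 libraries and -0.18 without mouse 332, there were 167 higher and 621 lower genes with all 4 and 794 higher and 1539 lower without mouse 332. After rescaling these medians were -0.0045 and -0.0055. The count of 541 was 2 when the model held only EP+TPA and EP, and 185 to 351 when 1 of the other 6 libraries was left out. Among the 387 lower genes, 68 were listed at 0 in mice 312, 328 and 336, and 66 of those were above 0 in mouse 332.

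The promoters of the gene with the smallest p and of 3 further genes are printed because these genes were among the leading lower and higher genes, and because 3 of the windows hold the half-site AGAACA of the element that progesterone and glucocorticoid receptors bind. Each is the RefSeq window (GRCm38.p6) of 250 bases before to 50 bases after the start site, read along the gene's strand, with the half-site in either orientation (AGAACA or TGTTCT) in capitals. The windows are Angptl7 at chr4:148500413-148500712 on the minus strand, Bdnf at chr2:109674450-109674749 on the plus strand, Tspan33 at chr6:29693964-29694263 on the plus strand and Lurap1l at chr4:80910436-80910735 on the plus strand. Angptl7 and Bdnf fell with EP+TPA, and Tspan33 and Lurap1l rose.
Angptl7: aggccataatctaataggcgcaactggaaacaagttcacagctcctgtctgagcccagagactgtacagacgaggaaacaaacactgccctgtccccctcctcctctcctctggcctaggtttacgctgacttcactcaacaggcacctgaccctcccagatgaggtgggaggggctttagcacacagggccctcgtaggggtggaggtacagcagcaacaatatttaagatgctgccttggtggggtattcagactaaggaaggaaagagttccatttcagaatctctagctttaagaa
Bdnf: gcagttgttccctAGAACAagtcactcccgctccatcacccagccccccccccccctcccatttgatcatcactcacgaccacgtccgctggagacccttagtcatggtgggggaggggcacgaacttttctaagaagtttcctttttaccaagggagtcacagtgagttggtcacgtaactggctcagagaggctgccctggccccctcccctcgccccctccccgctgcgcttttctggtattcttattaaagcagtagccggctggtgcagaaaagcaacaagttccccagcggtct
Tspan33: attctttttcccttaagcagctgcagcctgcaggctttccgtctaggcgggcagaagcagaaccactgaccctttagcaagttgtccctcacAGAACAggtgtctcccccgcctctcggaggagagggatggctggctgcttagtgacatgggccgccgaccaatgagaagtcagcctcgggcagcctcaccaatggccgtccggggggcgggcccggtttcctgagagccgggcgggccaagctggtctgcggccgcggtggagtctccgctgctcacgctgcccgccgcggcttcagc
Lurap1l: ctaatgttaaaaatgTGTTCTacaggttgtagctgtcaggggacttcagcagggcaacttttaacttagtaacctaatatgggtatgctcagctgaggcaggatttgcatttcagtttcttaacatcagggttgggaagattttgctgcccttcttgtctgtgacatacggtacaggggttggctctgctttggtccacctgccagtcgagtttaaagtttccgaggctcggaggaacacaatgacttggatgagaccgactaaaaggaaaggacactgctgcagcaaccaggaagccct
The half-site occurred once in each of the last 3 windows and not in that of Angptl7, and these 4 were picked with their sequences in view from the 8 leading genes that had a window. With all 4 libraries 32 of 280 lower genes with a window (11.4%) and 18 of 107 higher genes (16.8%) held the half-site, and without mouse 332 100 of 808 lower (12.4%) and 116 of 838 higher genes (13.8%), against 1120 of 9300 over all tested genes (12.0%). The full element, a pair of half-sites in opposite orientation, was in 3 of 280 lower windows (1.07%), 0 of 107 higher windows and 29 of 9300 windows in all (0.312%). Without mouse 332 it was in 5 of 808 lower (0.619%) and 4 of 838 higher windows (0.477%). With all 4 libraries the STAT5 element TTCNNNGAA was in 6.43% of lower, 7.48% of higher and 6.91% of all windows, and the estrogen receptor half-site AGGTCA in 12.9% of lower, 14.0% of higher and 11.9% of all windows, each counted on both strands. Without mouse 332 the STAT5 element was in 6.68% of lower and 6.44% of higher windows, and the estrogen receptor half-site in 11.3% of lower and 11.9% of higher windows. A match of these letters is a description of the window and not a binding site.

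Genes for several hormone receptors and for factors that act with them were lower with EP+TPA. Of 18 genes for steroid and prolactin receptors and their cofactors, Prlr, Foxa1, Pgr, Greb1 and Tbx3 fell in both fits. Ghr, Nr3c1 and Igf1r rose without mouse 332. Over all genes tested 3.25% fell with all 4 libraries, and 9.16% fell and 9.69% rose without mouse 332. The prolactin receptor gene Prlr was listed at 0 in EP+TPA mice 312, 328 and 336 and at 27.5 in mouse 332, against 119.5, 230.0 and 89.3 FPKM in EP mice 306, 311 and 327. The lowest EP value was above every EP+TPA value, and of the EP+TPA mice 332 alone was above 0. Its log2 difference was -5.88 (SE 0.95, adjusted p 0.00632), and without mouse 332 the adjusted p was 1.14e-09. Foxa1, the pioneer factor that opens chromatin for the estrogen receptor, was listed at 0 in EP+TPA mice 312, 328 and 336 and at 3.31 in mouse 332, against 15.8, 42.8 and 12.4 in EP mice 306, 311 and 327. The groups did not overlap, and the log2 difference was -3.90 (SE 0.59, adjusted p 0.00361; 3.43e-05 without mouse 332). The progesterone receptor gene Pgr was listed at 0 in EP+TPA mice 312, 328 and 336 and at 0.694 in mouse 332, against 2.45, 10.7 and 1.45 in EP mice 306, 311 and 327. Here too the groups did not overlap, but EP mouse 311 was far above the other EP mice, and the log2 difference was -2.02 (SE 0.44, adjusted p 0.0181; 0.00416 without mouse 332). Pgr lost its call without EP+TPA mouse 312 (adjusted p 0.0596), 328 (adjusted p 0.0565) or 336 (adjusted p 0.0638). The call was also lost with a pseudocount of 5 (adjusted p 0.061), with no filter (adjusted p 0.0798) and in a model of only the 2 groups (adjusted p 0.158).

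Esr1, which encodes the estrogen receptor, was at 1.39, 1.3 and 0.576 in EP+TPA mice 312, 328 and 336 and at 0.722 in mouse 332, against 2.45, 11.3 and 1.61 in EP mice 306, 311 and 327. The 4 EP+TPA values were below the 3 EP values, yet Esr1 did not pass, with a log2 difference of -1.29 (SE 0.42, adjusted p 0.0908; 0.0824 without mouse 332). The estrogen-induced gene Greb1 was at 0.000378, 0.00488 and 0 in EP+TPA mice 312, 328 and 336 and at 0.715 in mouse 332, against 3.46, 8.2 and 1.49 in EP mice 306, 311 and 327. It fell by 2.03 on the log2 scale (SE 0.32, adjusted p 0.00361; 0.000184 without mouse 332). The growth hormone receptor gene Ghr differed between mouse 332, at 9.88, and the other EP+TPA mice, at 39.1, 49 and 45.9, against 10.8, 18.6 and 8.94 with EP. It passed only without mouse 332 (log2 difference 1.78, SE 0.24, adjusted p 0.00012; 0.0919 with all 4).

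**Figure D2:**
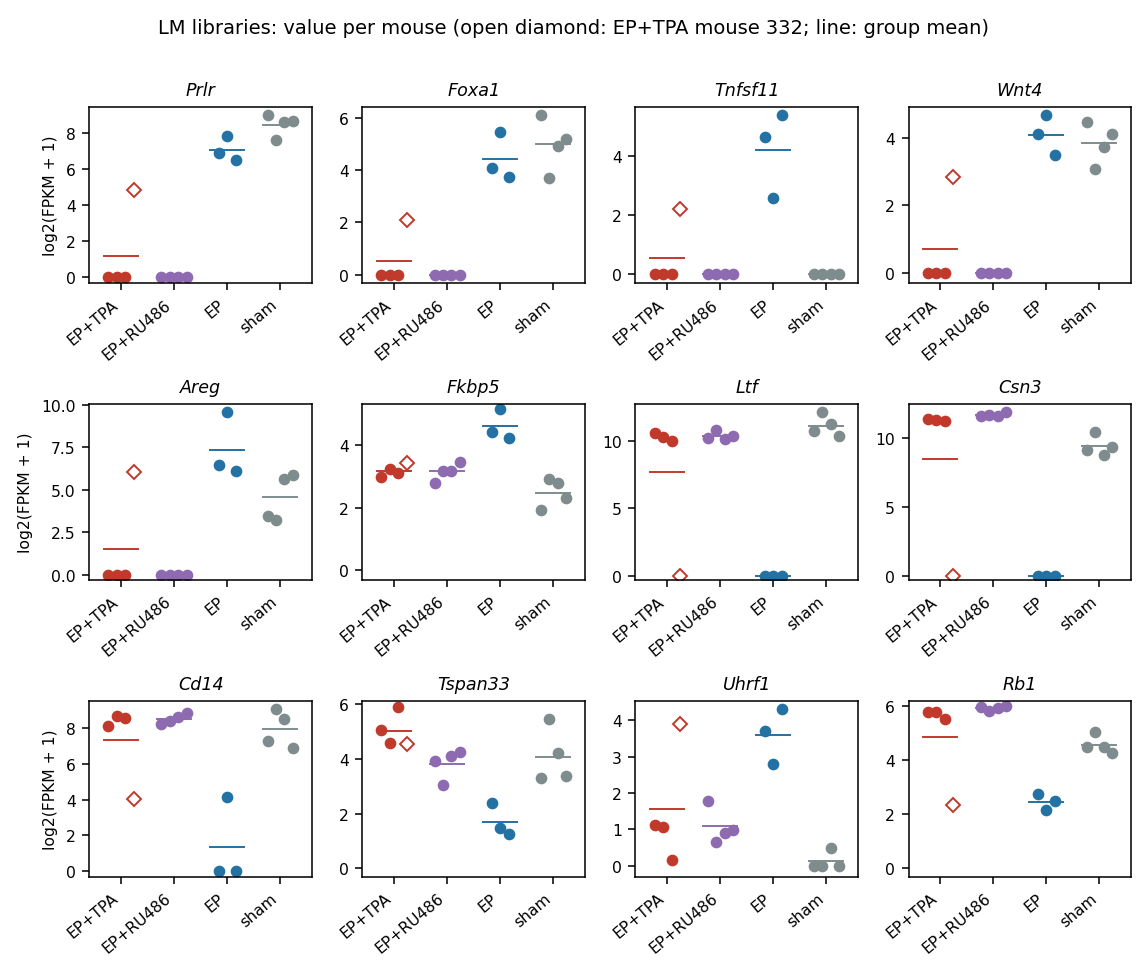
Rescaled values of 12 genes in the 15 LM libraries as log2(FPKM + 1), by treatment; each point is a mouse, the open diamond is EP+TPA mouse 332 and the line is the group mean. Prlr, Foxa1, Tnfsf11, Wnt4 and Areg were listed at 0 in 3 EP+TPA libraries and above 0 in all EP libraries, while Ltf and Csn3 were listed at 0 in mouse 332 and in all EP libraries.

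Several secreted factors through which luminal mature cells act on their neighbours fell. Of 16 tested paracrine mediators 5 fell and none rose (median log2 difference -0.96), where 3.25% of all genes tested fell. Without mouse 332 6 of 15 fell and 3 rose, where 9.16% of all genes tested fell and 9.69% rose. Tnfsf11, Il34, Rspo1 and Calca exceeded 1 FPKM only in EP and mouse 332. They passed the filter for testing through the group where they are high, so these counts are a description that supports nothing. Tnfsf11, which encodes RANK ligand, was listed at 0 in EP+TPA mice 312, 328 and 336 and at 3.58 in mouse 332, against 24.2, 5.02 and 40.8 in EP mice 306, 311 and 327. Sham libraries listed it at 0 as well. Its log2 difference was -3.66 (SE 0.58, adjusted p 0.0048; 3.8e-05 without mouse 332). Wnt4, a progesterone-induced WNT ligand, was listed at 0 in EP+TPA mice 312, 328 and 336 and at 6.14 in mouse 332, against 16.5, 24.7 and 10.2 in EP mice 306, 311 and 327. Mouse 332 lay below the lowest EP mouse and the others at 0, and the log2 difference was -3.39 (SE 0.58, adjusted p 0.00657; 5.19e-07 without mouse 332). Areg, the epidermal growth factor receptor ligand amphiregulin, was listed at 0 in EP+TPA mice 312, 328 and 336 and at 64 in mouse 332, against 85.5, 753 and 65.9 in EP mice 306, 311 and 327. Mouse 332 was just below the lowest EP value, EP mouse 311 was by far the highest, and the log2 difference was -5.85 (SE 1.40, adjusted p 0.0375; 0.000136 without mouse 332).

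The cytokine gene Il34, a ligand of the CSF1 receptor, was at 0.893, 0.866 and 0.524 in EP+TPA mice 312, 328 and 336 and at 2.5 in mouse 332, against 10, 6.59 and 6.84 in EP mice 306, 311 and 327. All 4 EP+TPA values lay below all EP values, and Il34 fell by 2.06 on the log2 scale (SE 0.24, adjusted p 0.000958; 9.02e-07 without mouse 332). The neurotrophin gene Bdnf was at 0.409, 0.292 and 0.367 in EP+TPA mice 312, 328 and 336 and at 1.15 in mouse 332, against 5.72, 14.9 and 4.05 in EP mice 306, 311 and 327. Bdnf had a log2 difference of -2.42 (SE 0.31, adjusted p 0.0013; 4.54e-05 without mouse 332), and the groups did not overlap. Rspo1, an R-spondin that amplifies WNT signals, was listed at 0 in EP+TPA mice 312, 328 and 336 and at 103 in mouse 332, against 99.6, 3.49 and 113 in EP mice 306, 311 and 327. Mouse 332 lay between the 2 high EP mice and EP mouse 311 was close to 0, and Rspo1 did not pass with all 4 libraries (adjusted p 0.194) and passed without mouse 332 (adjusted p 0.00179). Calca, the calcitonin gene, was listed at 0 in EP+TPA mice 312, 328 and 336 and at 61.5 in mouse 332, against 111, 0 and 227 in EP mice 306, 311 and 327. It overlapped between the groups, did not pass (adjusted p 0.274) and was not tested without mouse 332, since only 2 LM libraries were then above 1 FPKM.

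Among 20 tested targets of the progesterone and glucocorticoid receptors, Fkbp5, Slc52a3, Tgm2 and Fam20c fell and no gene rose. Without mouse 332 these 4 fell, and Cdkn1c, Pdk4, Stc1 and Ramp2 rose. Of all genes tested 3.25% fell and 1.29% rose with all 4 libraries, and 9.16% fell and 9.69% rose without mouse 332. The list had a mean of -0.15 and a median of 0.07 with all 4 libraries, and the median was -0.08 on the values as deposited, so the sign of the list depended on the summary and the scaling. Fkbp5, the receptor cochaperone induced by both receptors, was at 6.91, 8.32 and 7.53 in EP+TPA mice 312, 328 and 336 and at 9.74 in mouse 332, against 20.3, 34.6 and 17.9 in EP mice 306, 311 and 327. The groups did not overlap, mouse 332 was the highest of the EP+TPA mice, and the log2 difference was -1.42 (SE 0.27, adjusted p 0.00835; 0.00186 without mouse 332). Fam20c, the kinase that phosphorylates caseins and other secreted proteins, was at 1.67, 2.03 and 2.16 in EP+TPA mice 312, 328 and 336 and at 6.98 in mouse 332, against 16.2, 13 and 17.5 in EP mice 306, 311 and 327. Mouse 332 lay between the other EP+TPA mice and EP. Fam20c fell by 2.12 on the log2 scale (SE 0.30, adjusted p 0.00246; 4.82e-07 without mouse 332). The riboflavin transporter gene Slc52a3 was at 0.569, 0.978 and 0.3 in EP+TPA mice 312, 328 and 336 and at 2.04 in mouse 332, against 7.92, 14.9 and 7.15 in EP mice 306, 311 and 327. Slc52a3 had a log2 difference of -2.49 (SE 0.30, adjusted p 0.000964; 9.49e-06 without mouse 332), and sham averaged 3.27 ± 0.883 (SD, n = 4).

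Stc1, which encodes the secreted glycoprotein stanniocalcin, moved the other way in 3 libraries. It was at 64.1, 55 and 59.9 in EP+TPA mice 312, 328 and 336 and at 7.87 in mouse 332, against 8.4, 10.6 and 8 in EP mice 306, 311 and 327. Mouse 332 was below all EP mice and the other 3 were above them, and Stc1 passed only without mouse 332 (log2 difference 2.61, SE 0.18, adjusted p 1.73e-07; 0.0501 with all 4). Among 20 tested estrogen receptor targets Greb1, Pgr, Myb and Stc2 fell and no gene rose (mean -0.05, median 0.23), where 3.25% of all genes tested fell. Without mouse 332 5 fell and 5 rose, where 9.16% of all genes tested fell and 9.69% rose. Stc2, a second stanniocalcin, was listed at 0 in EP+TPA mice 312, 328 and 336 and at 22.2 in mouse 332, against 76.9, 300.2 and 51.2 in EP mice 306, 311 and 327. It fell in the all-library fit (adjusted p 0.00835) and without mouse 332 (adjusted p 1.27e-06). Igfbp5, which binds insulin-like growth factors, was at 331, 241 and 119 in EP+TPA mice 312, 328 and 336, listed at 0 in mouse 332 and listed at 0 in all 3 EP mice. Mouse 332 and EP shared the value 0, and the call came without mouse 332 (adjusted p 5.23e-09; 0.0507 with all 4).

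Of 17 prolactin and STAT5 pathway genes, Prlr, Jak2, Socs2 and Tph1 fell in both fits, and Ghr and Jak1 rose without mouse 332. The shares over all genes tested were 3.25% lower with all 4 libraries, and 9.16% lower and 9.69% higher without mouse 332. The list's mean was -0.54 and its median 0.12, or -0.03 on the values as deposited. Jak2, the kinase that carries the prolactin receptor's signal, was at 12.1, 9.1 and 7.61 in EP+TPA mice 312, 328 and 336 and at 14.9 in mouse 332, against 24.2, 43.4 and 19.1 in EP mice 306, 311 and 327. The groups did not overlap, and the log2 difference was -1.28 (SE 0.29, adjusted p 0.0215; 0.00341 without mouse 332). Stat5a, the transcription factor downstream of Jak2, was at 77.6, 50 and 58.3 in EP+TPA mice 312, 328 and 336 and at 51.8 in mouse 332, against 62.8, 111 and 64.6 in EP mice 306, 311 and 327. The groups overlapped and Stat5a did not pass (log2 difference -0.39, SE 0.58, adjusted p 0.739; 0.772 without mouse 332). Tph1, the rate-limiting enzyme of serotonin synthesis in mammary epithelium, was listed at 0 in EP+TPA mice 312, 328 and 336 and at 37.9 in mouse 332, against 113, 42.8 and 85.6 in EP mice 306, 311 and 327. All 4 EP+TPA values lay below the EP values, and Tph1 passed at an adjusted p of 0.035 (2.75e-05 without mouse 332).

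The luminal mature markers share many members with the lists above, so their counts are in part the same genes again. Of the 26 markers 11 fell and none rose with all 4 libraries (median log2 difference -1.43), where 3.25% of all genes tested fell. Among the 11, only Prom1, Cxcl15 and Fgfr2 were not in the lists above. Without mouse 332 11 fell and the tetraspanin gene Tspan8 rose (median -1.34), where 9.16% of all genes tested fell and 9.69% rose. The fibroblast growth factor receptor gene Fgfr2 was listed at 0 in EP+TPA mice 312, 328 and 336 and at 3.67 in mouse 332, against 7, 25.3 and 8.53 in EP mice 306, 311 and 327. The groups did not overlap, the log2 difference was -3.10 (SE 0.52, adjusted p 0.00601; 1.02e-05 without mouse 332), and sham averaged 98.4 ± 29.8 (SD, n = 4). The chemokine gene Cxcl15 was listed at 0 in EP+TPA mice 312, 328 and 336 and at 33 in mouse 332, against 93.6, 224 and 95.6 in EP mice 306, 311 and 327. It passed at an adjusted p of 0.0179, and at 2.72e-05 without mouse 332. The markers' summed level was 2405 to 6283 FPKM with EP+TPA, with 3995 in mouse 332, and 2488 to 8800.1 FPKM with EP, so the sums overlapped.

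Luminal progenitor markers moved the other way. Of 24, 7 rose and none fell (median log2 difference 1.84), where 1.29% of all genes tested rose. Their summed level was 11991 to 30474 FPKM in EP+TPA mice 312, 328 and 336, 7283 in mouse 332 and 3950.1 to 7187 with EP. Without mouse 332 13 rose while Rspo1, Csn2 and Cldn3 fell (median 2.20), where 9.69% of all genes tested rose and 9.16% fell. Csn3, which encodes kappa-casein, was at 2632, 2570.4 and 2466 in EP+TPA mice 312, 328 and 336, listed at 0 in mouse 332 and listed at 0 in all 3 EP mice. Ltf, the iron-binding milk protein lactoferrin, was at 1539.8, 1282 and 1059 in EP+TPA mice 312, 328 and 336, listed at 0 in mouse 332 and listed at 0 in all 3 EP mice. In both genes mouse 332 and EP shared the value 0 and the other 3 mice were far above it, and the all-library adjusted p was 0.0478 for Csn3 and 0.0483 for Ltf, with 7.07e-13 and 1.66e-11 without mouse 332. Sham libraries averaged 757 ± 426 for Csn3 and 2566 ± 1458 for Ltf (SD, n = 4), so neither gene was at 0 without hormones.

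Cd14, the lipopolysaccharide coreceptor that marks progenitor cells, was at 278, 407 and 372 in EP+TPA mice 312, 328 and 336 and at 15.1 in mouse 332, against 0, 16.4 and 0 in EP mice 306, 311 and 327. Mouse 332 was just below EP mouse 311 and the other 3 mice were far above it, and the log2 difference was 5.96 (SE 1.19, adjusted p 0.0179; 0.000318 without mouse 332). The tetraspanin gene Tspan33 was at 32.4, 22.8 and 58.8 in EP+TPA mice 312, 328 and 336 and at 22.5 in mouse 332, against 4.2, 1.75 and 1.42 in EP mice 306, 311 and 327. Here mouse 332 moved with its group: all 4 EP+TPA values were above all EP values, and the log2 difference was 3.32 (SE 0.50, adjusted p 0.00361; 0.000654 without mouse 332). Lurap1l, which encodes a leucine-rich adaptor-like protein, was at 115, 105 and 163 in EP+TPA mice 312, 328 and 336 and at 37.1 in mouse 332, against 14.4, 16.3 and 8.03 in EP mice 306, 311 and 327. The groups did not overlap, and the log2 difference was 2.81 (SE 0.47, adjusted p 0.00601; 6.14e-05 without mouse 332). The progenitor receptor gene Kit was at 58.4, 59.3 and 12.9 in EP+TPA mice 312, 328 and 336 and at 25.9 in mouse 332, against 79.3, 0 and 48.5 in EP mice 306, 311 and 327. The groups overlapped, EP mouse 311 was at 0, and Kit did not pass (log2 difference 1.10, SE 1.18, adjusted p 0.623; 0.563 without mouse 332). Elf5, the transcription factor of alveolar cells, was at 29.1, 23.3 and 12.9 in EP+TPA mice 312, 328 and 336 and at 15.3 in mouse 332, against 17.1, 0 and 18.7 in EP mice 306, 311 and 327. Elf5 also overlapped and did not pass (adjusted p 0.396; 0.346 without mouse 332).

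Of 22 tested milk genes 5 rose and none fell (median 1.47), and without mouse 332 10 rose while Csn2 and Lpl fell (median 1.72). Of all genes tested 1.29% rose and 3.25% fell with all 4 libraries, and 9.69% rose and 9.16% fell without mouse 332. Among the 5, Csn3, Ltf and Mfge8 were counted as progenitor markers too. Spp1, the phosphoprotein osteopontin, was at 1358, 1956 and 2603 in EP+TPA mice 312, 328 and 336, listed at 0 in mouse 332 and listed at 0 in all 3 EP mice. It passed narrowly with all 4 libraries (adjusted p 0.0495) and at 2.15e-09 without mouse 332. Mfge8, a milk fat globule protein that bridges dying cells to phagocytes, was at 2678, 3468 and 2911 in EP+TPA mice 312, 328 and 336 and at 431 in mouse 332, against 456, 271 and 302 in EP mice 306, 311 and 327. Mouse 332 lay inside the EP range and the others above it, and the log2 difference was 2.46 (SE 0.58, adjusted p 0.0328; 3.16, SE 0.31, adjusted p 7.99e-06 without mouse 332). Genes of 1 family with near-identical copies, such as the caseins, are uncertain where reads could be shared.

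Of 23 innate defence and acute phase genes, Cd14, Tlr4, Ltf, Cebpd and Casp4 rose and none fell (median 1.25). Without mouse 332 10 rose while Saa1 and Ccl20 fell. Shares over all genes tested were 1.29% higher and 3.25% lower with all 4 libraries, and 9.69% higher and 9.16% lower without mouse 332. Cd14 and Ltf were counted as progenitor markers too. Cebpd, an acute phase transcription factor, was at 164, 137 and 293 in EP+TPA mice 312, 328 and 336 and at 64.5 in mouse 332, against 20.4, 48.7 and 16.4 in EP mice 306, 311 and 327. All 4 values were above EP, and the log2 difference was 2.45 (SE 0.44, adjusted p 0.00813; 0.000175 without mouse 332). Casp4, the inflammatory caspase that senses lipopolysaccharide inside the cell, was at 13.2, 16.4 and 17.8 in EP+TPA mice 312, 328 and 336 and at 6.79 in mouse 332, against 3.37, 3.58 and 3.58 in EP mice 306, 311 and 327. It had a log2 difference of 1.61 (SE 0.28, adjusted p 0.00632; 6.3e-05 without mouse 332), with no overlap between the groups. Lbp, the lipopolysaccharide binding protein, was at 169.8, 150.1 and 165 in 3 EP+TPA mice and 34.6 in mouse 332, against 35.7, 39.9 and 35.4 with EP, and passed only without mouse 332 (adjusted p 9.76e-05; 0.0675 with all 4).

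Summed levels of the markers of other cell types also differed between the libraries. The summed level of 20 endothelial markers was 1004 to 1605 FPKM in EP+TPA mice 312, 328 and 336, 545 in mouse 332, and 601 to 907 in EP mice. None of the 20 passed with all 4 libraries (median 0.62), 15 rose and none fell without mouse 332 (median 0.98), where 9.69% of all genes tested rose, and none of the 20 was listed at 0 in a whole group. The summed level of 18 immune markers was 125 to 619.6 in the 3 mice, 21 in mouse 332 and 36.2 to 177 with EP, with Ptprc, Itgam, Adgre1 and Fcer1g among those at 0 in mouse 332. Of 12 tested, Tyrobp alone passed, and only without mouse 332. For 5 red blood cell markers the sum was 82.2 to 263 in the 3 mice, 0.178 in mouse 332 and 9.12 to 57 with EP, and Hbb-b1, Hba-a1 and Hba-a2 were at 0 in mouse 332. For 9 skeletal muscle markers it was 18 to 141 in the 3 mice, 3.53 in mouse 332 and 5.11 to 11.7 with EP, and Acta1, Ckm, Tnnt3, Tnnc2, Myh4 and Actn3 were at 0 in mouse 332. Neither list had a call in either fit. The fibroblast marker sum was 34.2 to 298 in the 3 mice, 61.1 in mouse 332 and 79.2 to 181 with EP, so the 3 mice spanned the EP range. The pericyte sum was 18.4 to 49.8 in the 3 mice, 18.1 in mouse 332 and 18.1 to 24.2 with EP, and the adipocyte sum was 948 to 1919 in the 3 mice, 674 in mouse 332 and 668 to 834 with EP. Fibroblast, pericyte and adipocyte markers had 1 of 12, 2 of 6 and 1 of 7 higher without mouse 332 and 0 with all 4. Among 28 basal markers Krt15 and Cdh3 fell in both fits, and 5 rose without mouse 332. The part of these cell types in the results was not tested.

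**Figure D3:**
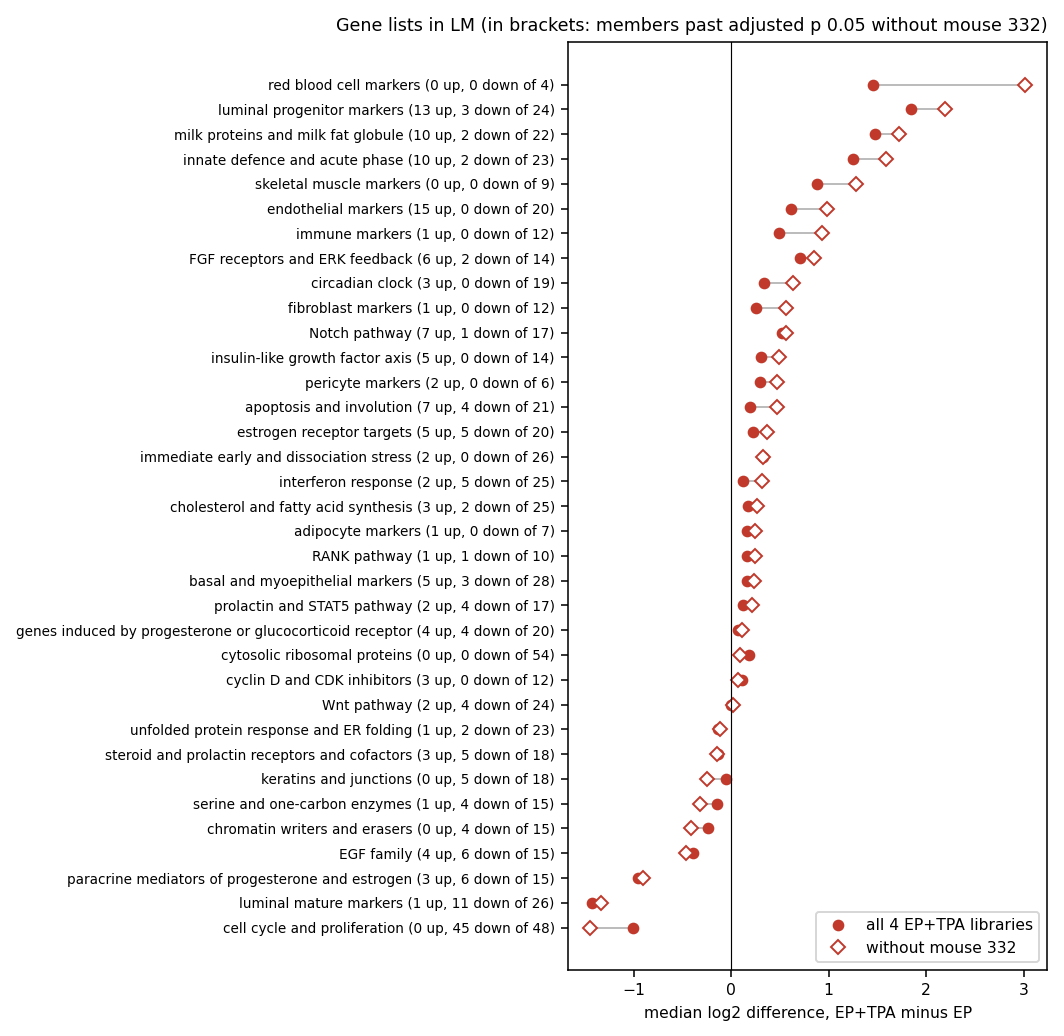
Median log2 difference between EP+TPA and EP over the tested members of 35 gene lists, with all 4 EP+TPA libraries (filled) and without mouse 332 (open); brackets give members past an adjusted p of 0.05 without mouse 332. Cell cycle genes had a median of -1.01 with all 4 and -1.45 without mouse 332, and luminal progenitor markers had 1.84 with all 4 and 2.20 without it.

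Calls among cell cycle genes depended on mouse 332. With all 4 libraries 2 of 52 fell, Ccnf and Ndc80, where 3.25% of all genes tested fell. None rose, and the median log2 difference was -1.01. Without mouse 332 45 of 48 fell (median -1.45) and none rose, and Cdt1, Pcna and Ccne2 did not pass, where 9.16% of all genes tested fell. A gene was tested when its value reached 1 in at least 3 LM libraries and exceeded any shared lowest LM value in at least 3. Members low in sham and in the antagonist groups thus passed through EP, where they are high, and the counts over tested members are a description that supports nothing. Of the 6 members not tested without mouse 332 (Bub1, E2f8, Mki67, Cenpe, Cenpf and Nuf2), 4 had passed this filter only with it. The summed level of the 54 genes was 193 to 221 FPKM in mice 312, 328 and 336, 708 in mouse 332 and 371 to 886 with EP, with 115 to 146 in sham. Uhrf1, which maintains DNA methylation at replication forks, was at 1.16, 1.11 and 0.113 in EP+TPA mice 312, 328 and 336 and at 14 in mouse 332, against 12, 5.93 and 19 in EP mice 306, 311 and 327. Mouse 332 lay inside the EP range, and Uhrf1 passed only without it (log2 difference -2.82, SE 0.37, adjusted p 0.000133; 0.0929 with all 4).

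The mitotic kinase gene Melk was at 0.143, 0.628 and 0.483 in EP+TPA mice 312, 328 and 336 and at 4.28 in mouse 332, against 5.02, 2.44 and 5.95 in EP mice 306, 311 and 327. Kif11, a spindle motor, was at 0.475, 0.24 and 0.0898 in EP+TPA mice 312, 328 and 336 and at 3.22 in mouse 332, against 3.15, 2.5 and 4.7 in EP mice 306, 311 and 327. In both, mouse 332 lay inside the EP range, and both passed only without it (adjusted p 0.000169 for Melk and 0.000367 for Kif11). The proliferation marker gene Mki67 was at 0.215, 0.162 and 0.203 in EP+TPA mice 312, 328 and 336 and at 1.45 in mouse 332, against 1.36, 0.707 and 1.6 in EP mice 306, 311 and 327. Mouse 332 was again within the EP range, and Mki67 did not pass (adjusted p 0.163). Rb1, the retinoblastoma gene that restrains entry into S phase, was at 53.9, 54.2 and 44.6 in EP+TPA mice 312, 328 and 336 and at 4.09 in mouse 332, against 5.73, 3.48 and 4.63 in EP mice 306, 311 and 327. Its log2 difference was 2.39 (SE 0.63, adjusted p 0.0483) with all 4 libraries and 3.22 (SE 0.20, adjusted p 4.64e-08) without mouse 332, which lay inside the EP range. Cdkn1c, a CDK inhibitor, rose only without mouse 332 (log2 difference 1.57, SE 0.37, adjusted p 0.0079).

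The 3 lower genes of smallest p were listed at 0 in all 4 sham libraries. They exceeded 1 FPKM only in EP, or in EP and mouse 332, as did Tnfsf11, Tnxb, Il34, Greb1, Rspo1 and Calca. These genes passed the filter on low values through the group where they are high. Angptl7, a secreted angiopoietin-like protein, was listed at 0 in EP+TPA mice 312, 328 and 336 and at 1.52 in mouse 332, against 34.9, 37.7 and 29.6 in EP mice 306, 311 and 327. It was listed at 0 in all EP+RU486 libraries too, its log2 difference was -4.79 (SE 0.26, adjusted p 7.44e-08; 1.45e-12 without mouse 332), and it was 1 of the 2 genes that passed when only the 2 groups were fitted, with the microRNA gene Mir6340. The bone morphogenetic protein gene Bmp8b was listed at 0 in EP+TPA mice 312, 328 and 336 and at 0.193 in mouse 332, against 2.19, 2.6 and 1.68 in EP mice 306, 311 and 327. Asic2, an acid-sensing ion channel, was listed at 0 in EP+TPA mice 312, 328 and 336 and at 1.04 in mouse 332, against 7.3, 11.6 and 4.33 in EP mice 306, 311 and 327. Neither overlapped between the groups, with adjusted p values of 6.8e-05 for Bmp8b (1.51e-06 without mouse 332) and 0.000111 for Asic2 (3.25e-07 without mouse 332). Arg2, the mitochondrial arginase, was listed at 0 in EP+TPA mice 312, 328 and 336 and at 8.74 in mouse 332, against 51.5, 122 and 51.3 in EP mice 306, 311 and 327. It had a log2 difference of -5.30 (SE 0.69, adjusted p 0.00235; 3.55e-08 without mouse 332), and sham averaged 59.2 ± 23.4 (SD, n = 4). Suox (sulfite oxidase), Nek7 (a kinase of the inflammasome), Tnfrsf21 (a death receptor), Avpi1, Tmem56 and Tnxb (tenascin X) had log2 differences of -3.86, -2.18, -2.03, -1.69, -2.65 and -1.93, with SEs of 0.50, 0.29, 0.27, 0.23, 0.33 and 0.27 and adjusted p from 0.0013 to 0.00246 (8.15e-07 to 0.000177 without mouse 332). In all 6 the groups did not overlap, where 8.9% of all genes tested had all 4 EP+TPA values below EP. These genes were picked by smallest p, so the lack of overlap is a description.

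In the leading higher genes described next, all 4 EP+TPA values lay above all 3 EP values, as in 5.06% of all genes tested. They too were picked by smallest p, so the lack of overlap is a description. Trib2, a pseudokinase that steers protein degradation, was at 11, 8.75 and 10.5 in EP+TPA mice 312, 328 and 336 and at 7.53 in mouse 332, against 2.9, 2.87 and 2.4 in EP mice 306, 311 and 327. Mouse 332 was close to the other EP+TPA mice, and the log2 difference was 1.48 (SE 0.20, adjusted p 0.00164; 9.48e-05 without mouse 332). The palmitoyltransferase gene Zdhhc14 was at 10.8, 8.24 and 11.2 in EP+TPA mice 312, 328 and 336 and at 1.43 in mouse 332, against 0.0474, 0 and 0 in EP mice 306, 311 and 327. Mouse 332 was above EP and far below the other EP+TPA mice, and the log2 difference was 2.89 (SE 0.44, adjusted p 0.00361; 3.25e-07 without mouse 332). Khdrbs3, an RNA-binding splicing regulator, was at 114, 100.4 and 130.3 in EP+TPA mice 312, 328 and 336 and at 75.4 in mouse 332, against 59.5, 26.6 and 41.8 in EP mice 306, 311 and 327. It rose by 1.33 on the log2 scale (SE 0.23, adjusted p 0.00632; 0.000463 without mouse 332) and was listed at 0 in all 4 sham libraries. Flvcr1, Ppp1r2, Sltm, Isoc1, E2f5, Tprn and Trip6 had log2 differences of 2.03, 1.84, 1.02, 1.61, 1.06, 2.18 and 1.20 (SE 0.37, 0.34, 0.19, 0.30, 0.20, 0.41 and 0.23), with adjusted p from 0.00726 to 0.00835 in these 7 genes (4.91e-05 to 0.00231 without mouse 332).

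The genes described next had the smallest p among those called only without mouse 332. That choice selects genes in which mouse 332 departs from its group, so its place in them is a description and supports nothing. The integrin gene Itga8 was at 44, 32.4 and 34.8 in EP+TPA mice 312, 328 and 336 and listed at 0 in mouse 332, against 0, 0.831 and 0 in EP mice 306, 311 and 327. Foxi1, a forkhead transcription factor, was at 42, 35.4 and 33.3 in EP+TPA mice 312, 328 and 336 and listed at 0 in mouse 332, against 0, 0.614 and 0 in EP mice 306, 311 and 327. Lipa, the lysosomal acid lipase, was at 112, 147 and 72.9 in EP+TPA mice 312, 328 and 336 and listed at 0 in mouse 332, against 0, 0 and 2.17 in EP mice 306, 311 and 327. In all 3 genes the other EP+TPA mice were far above EP and mouse 332 was at 0, with adjusted p values of 6.42e-08, 1.06e-08 and 1.73e-07 without it and 0.0614, 0.0563 and 0.0751 with it. Prdx2, a peroxiredoxin that removes peroxides, was at 73.5, 74.8 and 68.1 in EP+TPA mice 312, 328 and 336 and at 194 in mouse 332, against 186, 138 and 197 in EP mice 306, 311 and 327. Mouse 332 was within the EP range, and without it Prdx2 fell (log2 difference -1.24, SE 0.17, adjusted p 0.000159; 0.0846 with all 4). Kif22, a chromosome motor, and Iqgap3, a scaffold of dividing cells, had log2 differences of -2.27 and -2.17 without mouse 332 (SE 0.32 and 0.24, adjusted p 0.000207 and 2.28e-05).

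Counts in the growth factor lists stand beside shares of 3.25% lower and 1.29% higher over all genes tested with all 4 libraries, and 9.16% lower and 9.69% higher without mouse 332. Of 15 EGF family genes 3 fell and 1 rose, and without mouse 332 6 fell and 4 rose. The receptor gene Erbb2 was at 5.82, 11.1 and 13.5 in EP+TPA mice 312, 328 and 336 and at 12.2 in mouse 332, against 26.5, 31.9 and 22.5 in EP mice 306, 311 and 327. It fell by 1.30 on the log2 scale (SE 0.23, adjusted p 0.00631; 0.00105 without mouse 332) with no overlap. Adam10, a protease that sheds membrane-bound ligands and receptors, was at 8.9, 11.6 and 8.61 in EP+TPA mice 312, 328 and 336 and at 18.7 in mouse 332, against 37.4, 67.3 and 35.8 in EP mice 306, 311 and 327. Adam10 had a log2 difference of -1.89 (SE 0.30, adjusted p 0.00386; 0.000146 without mouse 332), and the groups did not overlap. Lrig1, a negative regulator of the EGF receptors, was at 11.5, 7.62 and 15.2 in EP+TPA mice 312, 328 and 336 and at 7.4 in mouse 332, against 2.52, 3.55 and 3.71 in EP mice 306, 311 and 327. It rose by 1.38 on the log2 scale (SE 0.30, adjusted p 0.0187; 0.00382 without mouse 332), again with all 4 EP+TPA values above EP.

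Of 17 Notch pathway genes the ligand gene Jag1 fell in both fits, and 7 (Notch4, Dll1, Dll4, Hey1, Hey2, Rbpj and Mfng) rose without mouse 332. Hey1, a Notch target that also marks progenitor cells, was at 132, 84.4 and 32.5 in EP+TPA mice 312, 328 and 336 and listed at 0 in mouse 332, against 0, 12.8 and 0 in EP mice 306, 311 and 327. It passed only without mouse 332 (adjusted p 0.00213; 0.187 with all 4), and Dll4 and Notch4 are genes of endothelial cells too. None of 14 genes of the insulin-like growth factor axis passed with all 4 libraries, and 5 (Igf1r, Irs2, Igfbp4, Igfbp5 and Igfbp7) rose without mouse 332. Of 14 FGF receptor and ERK feedback genes Dusp6 rose and Fgfr2 and Spry1 fell, and 6 rose without mouse 332. Spry1, a feedback inhibitor of ERK, was at 11, 9.3 and 3.93 in EP+TPA mice 312, 328 and 336 and at 24 in mouse 332, against 32.2, 33.3 and 24.3 in EP mice 306, 311 and 327. Mouse 332 was just below the lowest EP mouse, and Spry1 fell by 1.46 on the log2 scale (SE 0.40, adjusted p 0.0486; 0.000959 without mouse 332). In the Wnt pathway Wnt4 and Fzd6 fell of 25 tested, and without mouse 332 4 of 24 fell and 2 rose. Of 10 RANK pathway genes Tnfsf11 fell in both fits (median 0.16, mean -0.10), and Nfkb1 rose without mouse 332.

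The same shares over all genes apply to the stress, immune and metabolic lists. Of 25 interferon response genes Bst2, Psmb8 and B2m fell (median 0.13, mean -0.10), and without mouse 332 5 fell and 2 rose. B2m, the light chain of class I antigen-presenting molecules, was at 791, 520.3 and 455 in EP+TPA mice 312, 328 and 336 and at 1621 in mouse 332, against 3717, 2682 and 2775 in EP mice 306, 311 and 327. B2m had a log2 difference of -2.02 (SE 0.39, adjusted p 0.0104; 0.000126 without mouse 332), with mouse 332 between the other EP+TPA mice and EP. Phgdh, the first enzyme of serine synthesis, was at 1.83, 0.278 and 2.75 in EP+TPA mice 312, 328 and 336 and at 20.9 in mouse 332, against 23.2, 35 and 38 in EP mice 306, 311 and 327. It was the 1 call among 15 serine and one-carbon genes, with a log2 difference of -2.96 (SE 0.72, adjusted p 0.0365; 7.52e-05 without mouse 332), and without mouse 332 4 fell and 1 rose. The fatty acid elongase gene Elovl6 was at 3.16, 4.7 and 4.49 in EP+TPA mice 312, 328 and 336 and at 2.34 in mouse 332, against 1.33, 0.282 and 1.2 in EP mice 306, 311 and 327. It rose by 1.29 on the log2 scale (SE 0.25, adjusted p 0.00954; 0.000949 without mouse 332), and all 4 EP+TPA values were above EP.

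Of 21 apoptosis and involution genes Bcl2l11, Mcl1 and Fas rose and Pmaip1 and Tnfrsf21 fell, and without mouse 332 7 rose and 4 fell. The death receptor gene Fas was at 16.6, 15.5 and 28 in EP+TPA mice 312, 328 and 336 and at 6.17 in mouse 332, against 3.86, 6.37 and 2.61 in EP mice 306, 311 and 327. It had a log2 difference of 1.63 (SE 0.35, adjusted p 0.0179; 0.000133 without mouse 332), with mouse 332 inside the EP range. Of 26 immediate early and dissociation stress genes Fosl2 and Mcl1 rose in both fits, and of 23 genes of the unfolded protein response Pdia4 fell. Hdac1 alone fell of 15 chromatin writers and erasers, and Krt15 and Cdh3 of 18 keratin and junction genes. Without mouse 332 the counts were 4 and 5, and no member of either list rose. Circadian clock genes had 0 calls of 19, and 3 higher without mouse 332 (Nr1d2, Rora and Hlf). None of 54 cytosolic ribosomal protein genes passed in either fit. Their median was 0.19 with all 4 libraries and 0.09 without mouse 332, and the second of these was -0.12 on the values as deposited.

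Where mouse 332 lay was measured on genes called without it, in a fit that also held the EP+RU486 and sham libraries. Over the 2223 genes called without it, a position of 0 is the EP mean and 1 the mean of mice 312, 328 and 336 on the log2 scale. Its median position was 0.114 (interquartile range -0.193 to 0.430). It was -0.0675 over the 1143 higher genes and 0.302 over the 1080 lower genes. By the same measure, on genes called without the library itself and without mouse 332, EP+TPA mice 312, 328 and 336 stood at 0.954, 0.929 and 0.856, and EP mice 306, 311 and 327 at 0.139, 0.293 and 0.0379. EP mouse 327 had a like split, at -0.0703 over higher and 0.201 over lower genes. Over lower genes EP mouse 306 stood at 0.155 and EP mouse 311 at 0.3005, close to mouse 332. By list, mouse 332 stood at 0.587 over 8 receptor and cofactor genes, 0.420 over 12 luminal mature markers, 0.0 over 16 luminal progenitor markers, -0.116 over 45 cell cycle genes and -0.281 over 15 endothelial markers, each a median over members called without it. These positions are descriptions with no test.

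**Figure D4:**
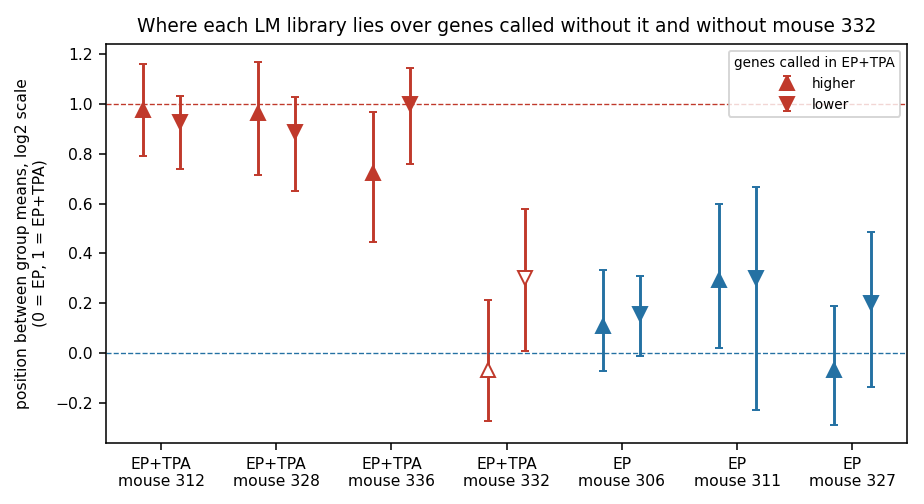
Median position (marker) and interquartile range (bar) of each of the 7 LM libraries between the EP mean (0) and the EP+TPA mean (1) on the log2 scale, over genes that were higher or lower in EP+TPA when that library and mouse 332 were left out. Mice 312, 328 and 336 had medians from 0.724 to 1. Mouse 332 had -0.0675 for higher and 0.302 for lower genes. EP mice had -0.0703 to 0.291 for higher genes and 0.155 to 0.3005 for lower genes.

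Telapristone was set against mifepristone, the older antagonist, in LM at the same 14 days and at doses that are not given. Both are steroids with a dimethylaminophenyl group, and telapristone acetate carries an acetate ester and mifepristone a propynyl group. No gene of 11893 passed (0.0%), 1584 had an unadjusted p under 0.05, and the smallest adjusted p was 0.329. Without mouse 332 no gene of 11795 passed, 1107 had an unadjusted p under 0.05, and the smallest adjusted p was 0.516. Without EP+TPA mouse 328 5 genes passed, and 1 passed with a pseudocount of 0.1. The 95% interval of the difference lay inside -1 to 1 on the log2 scale for 9072 genes (76.3%) with all 4 libraries and 9443 (80.1%) without mouse 332, and a missed threshold does not show that the compounds act alike. Between EP+TPA and EP the same share was 65.5% with all 4 libraries and 59.8% without mouse 332. Among the genes with such an interval between the antagonists was Fkbp5, at 8.13 ± 1.22 with EP+TPA and 8.05 ± 1.68 with EP+RU486 (SD, n = 4 each), with a log2 difference of 0.02 and an interval of -0.50 to 0.55.

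The genes of smallest p between the antagonists included Srsf7, a splicing factor, at 56.5 ± 5.36 with EP+TPA and 32.9 ± 7.29 with EP+RU486 (log2 difference 0.78, interval 0.45 to 1.11). AW112010 was at 13 ± 8.58 with EP+TPA and 1.09 ± 1.46 with EP+RU486 (log2 difference 2.73, interval 1.59 to 3.87). Chdh, which oxidises choline, was at 2.35 ± 1.04 with EP+TPA and 6.53 ± 1.21 with EP+RU486 (log2 difference -1.22, interval -1.75 to -0.69), and Nynrin at 1.02 ± 0.542 with EP+TPA and 2.66 ± 0.354 with EP+RU486 (log2 difference -0.90, interval -1.29 to -0.51). Nip7, a ribosome biogenesis factor, was at 14.5 ± 3.31 with EP+TPA and 7.68 ± 1.42 with EP+RU486 (log2 difference 0.83, interval 0.45 to 1.20). Ccnf, a cyclin that directs protein degradation, was at 1.17, 0.208 and 2.41 in EP+TPA mice 312, 328 and 336 and 1.67 in mouse 332, and was listed at 0 in all EP+RU486 libraries. All 6 had an adjusted p of 0.329.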

How the data were processed

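RNA of 15 LM libraries, 1 per mouse, was taken from a table of 47 libraries in which every column matched a sample title. The deposited table names no unit; its values are not whole numbers and were read as FPKM made by the authors, and no count test was run. The submitters' processing notes name Cufflinks, STAR and DESeq2 as tools and mm9 as build, with versions and order not given in the sources used here. Of 22007 symbols, 27 that read as calendar dates were dropped. Where LM libraries shared a gene's lowest value, it was subtracted before values were divided by median-ratio factors over 8539 genes, and then added back. Genes were tested if they reached 1 FPKM in at least 3 LM libraries and exceeded the shared lowest value in at least 3. They were fitted with limma 3.58.1 in R 4.3.3 on log2(FPKM + 1), with the 4 LM groups in 1 model, robust variance estimation with a trend, and Benjamini-Hochberg adjustment at 0.05. The fit was tested on simulated data. Alternatives changed the scaling, the pseudocount, the filter, the samples and weights. Members and gene lists were chosen with earlier results of these data known. Named genes were the 14 of smallest p in each direction (unnamed gene models left out of the text), the 6 in each direction called only without mouse 332, up to 4 called members of each list, a few defining members, and the 6 of smallest p against EP+RU486. Intervals are 95% intervals of that fit. Genes whose lists overlap count under each list. Some genes are not reported here.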

Additional observations from a re-analysis of the deposited data

Results flagged for a closer look

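In groups of 4, the gap of the highest or lowest library to its nearest neighbour was compared with the range of the group, and a share above Dixon's 95% critical value put a result here. Of 168 such groups examined (133 genes and 35 lists in LM EP+TPA), 48 were past it, and in all 48 mouse 332 was the library apart. Chance alone flags about 1 in 20 groups, but many of these genes were chosen because they were called only without mouse 332, or from lists by their calls without it, so the number past the value is not evidence that mouse 332 stands apart.

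Mouse 332 was above the other EP+TPA mice, in FPKM, for Angptl7 (1.52), Bmp8b (0.193), Asic2 (1.04), Tmem56 (0.361), Arg2 (8.74), Fam20c (6.98), Tnxb (1.36), Sult5a1 (6.37), Prdx2 (194), Prlr (27.5), Foxa1 (3.31), Greb1 (0.715), Wnt4 (6.14), Tnfsf11 (3.58), Stc2 (22.2), Tph1 (37.9), Fgfr2 (3.67), Cxcl15 (33), Rspo1 (103), Areg (64), Psat1 (41.2), Hdac1 (53.2), Cdh3 (6.32), Pgr (0.694), Calca (61.5) and Mki67 (1.45). It was below them for Stc1 (7.87), Ghr (9.88), Mfge8 (431), Rb1 (4.09), Fgfr1 (4.02), Etv1 (0.263), Igfbp7 (209), Igf1r (1.25), Lbp (34.6), Timp3 (13.6) and Cd14 (15.1), and it was listed at 0 for Foxi1, Itga8, Ccn5, Lipa, Csn3, Ltf and Spp1.

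By mean centred log2 value of a list, mouse 332 stood at -1.312 for milk genes and 1.275 for cell cycle genes, at -0.502 for luminal mature markers and at 0.547 for serine and one-carbon enzymes. Whether the library of mouse 332 differs in handling or in identity was not tested.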

How the results depend on the processing

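Counts of genes changed between EP+TPA and EP held within 1.5 times of 541 on the values as deposited (788), with a pseudocount of 0.1 (498) or 5 (539), with a stricter filter (400) and with no robust estimation (592). They moved further with no filter (214), in a model of only the 2 groups (2, Angptl7 and Mir6340), and with weights by library (2428, 1231 higher and 1197 lower; the estimation of the weights stopped early). Leaving out 1 library gave 185 to 2223, with 258, 267 and 351 without EP mouse 306, 311 or 327, 215, 237 and 185 without EP+TPA mouse 312, 328 or 336, and 2223 without mouse 332. Without mouse 332, further changes gave 1385 in a model of only the 2 groups, 2333 as deposited and 2222 with a pseudocount of 0.1. Alternatives added after seeing the data left out mouse 332 and 1 more, giving 1590, 2153 and 1496 without EP mouse 306, 311 or 327 and 1558, 1769 and 1898 without EP+TPA mouse 312, 328 or 336. Against EP+RU486 the count was 0 except with a pseudocount of 0.1 (1) and in leaving out 1 library (0 to 5, the 5 without EP+TPA mouse 328). Of 66 named genes called with all 4 libraries, 66 stayed called without mouse 332, 42 to 46 without 1 of the other 6 libraries (18 to 24 lost), 40 with no filter and 1 in a model of only the 2 groups, and 0 reversed under any alternative. Causes of these moves were not tested.

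No paired analysis was possible because no mouse is in more than 1 LM treatment group and mouse numbers are shared only between fractions.

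The main limits are groups of 3 and 4 libraries, an unknown depth, and deposited values that sit for many genes at a shared lowest value, which affects the size of a difference at low values. EP mouse 311 and EP+TPA mouse 332 each stood apart in their groups.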
